A study of Mus musculus with 12 samples.

Results

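The 38 genes described here encode clotting factors, anticoagulants, fibrinolysis proteins and complement proteins that the liver secretes into plasma. They were chosen by symbol from a deposited table of liver RNA levels, with serpins left out, and are 38 of 23991 genes in that table. For a gene listed under several transcripts, the transcript with the highest mean over all libraries was used. All 38 were found, and 36 of them passed the filter on low values that the tests used.

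Liver polyA RNA of male C57/Bl6J mice was sequenced in 12 libraries of 3 groups, with 4 libraries in each. HFD+ASBTi mice ate a high-fat diet holding 0.2% cholesterol by weight together with 0.006% SC-435, which blocks ASBT, the ileal transporter that returns bile acids to the liver. HFD mice ate the same fatty, cholesterol-rich diet without SC-435, and chow mice ate chow. All mice began their diet at 4 weeks of age and stayed on it for 16 weeks. HFD is set against chow for the effect of the diet, HFD+ASBTi against HFD for that of the added inhibitor, and HFD+ASBTi against chow for the difference that remains. Libraries are named by group and number, and values within a group are given in the order 1, 2, 3 and 4. For chow the order is 1, 2, C7 and 4, because the column headed C7 matches the chow group and no 1 chow sample by name. Whether every library is a separate mouse is not spelled out in the labels, so the spread behind the p-values is that between libraries and may be technical.

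Hepatocytes make most of the fibrinogen, prothrombin and complement C3 in plasma. In clotting, the contact factors and the tissue factor pathway converge on thrombin, which cuts fibrinogen into fibrin. Plasmin later dissolves the clot. Complement runs through C3, which its lectin, classical and alternative routes all cleave, and ends in a membrane pore. Several of these proteins, fibrinogen and C3 among them, are also acute phase proteins, whose genes are switched on in hepatocytes by IL-6 and related cytokines through STAT3 and C/EBP factors.

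Promoter sequence is shown for the fibrinogen chains, which moved together in these data, and for Mbl2 and C4bp, which differed from chow in the other direction. The 250 bases before the transcription start come from RefSeq on GRCm38.p6 and are written 5′ to 3′ on the strand of the gene. Capitals mark matches on either strand to the letters searched. These were TTGCNNAA (C/EBP), CTGGGAA (IL-6 response) and TTCNNNGAA (STAT).
Fga, chr3:83025903-83026152, plus strand: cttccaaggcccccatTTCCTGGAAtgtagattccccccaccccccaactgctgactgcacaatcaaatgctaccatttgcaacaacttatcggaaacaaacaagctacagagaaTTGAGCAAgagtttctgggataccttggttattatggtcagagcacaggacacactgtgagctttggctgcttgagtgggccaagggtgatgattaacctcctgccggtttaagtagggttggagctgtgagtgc
Fgb, chr3:83049864-83050113, minus strand: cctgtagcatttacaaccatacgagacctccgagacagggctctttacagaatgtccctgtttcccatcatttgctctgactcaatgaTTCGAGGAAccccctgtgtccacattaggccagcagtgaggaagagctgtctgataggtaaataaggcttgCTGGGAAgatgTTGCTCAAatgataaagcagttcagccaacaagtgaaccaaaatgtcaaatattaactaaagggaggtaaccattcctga
Fgg, chr3:83007474-83007723, plus strand: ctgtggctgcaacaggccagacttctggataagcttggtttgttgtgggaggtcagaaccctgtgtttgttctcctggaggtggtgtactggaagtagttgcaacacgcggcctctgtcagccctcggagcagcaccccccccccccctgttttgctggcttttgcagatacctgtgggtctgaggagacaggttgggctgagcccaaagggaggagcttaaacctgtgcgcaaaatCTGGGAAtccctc
Mbl2, chr19:30232678-30232927, plus strand: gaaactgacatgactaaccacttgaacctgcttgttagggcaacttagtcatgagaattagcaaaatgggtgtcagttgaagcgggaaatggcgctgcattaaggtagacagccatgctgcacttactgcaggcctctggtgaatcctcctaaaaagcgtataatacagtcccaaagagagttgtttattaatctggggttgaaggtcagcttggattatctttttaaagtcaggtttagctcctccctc
C4bp, chr1:130661619-130661868, minus strand: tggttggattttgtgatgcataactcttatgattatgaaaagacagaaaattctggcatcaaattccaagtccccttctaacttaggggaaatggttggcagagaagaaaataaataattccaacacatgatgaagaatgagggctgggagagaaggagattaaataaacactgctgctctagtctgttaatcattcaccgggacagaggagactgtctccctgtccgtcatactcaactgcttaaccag

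Fga held a C/EBP match starting 135 bases before its start and a STAT match at 234. Fgb held the C/EBP match at 80, the IL-6 response letters at 91 and the STAT match at 162 bases before its start. Fgg held only the IL-6 response letters, at 13 bases. The Mbl2 and C4bp windows held none of these matches. Of the called members whose sequence is not shown, C3, lower in HFD livers, held a C/EBP match at 45 bases, and F13b, higher in HFD livers, held no match. Plg, also lower in HFD livers, had no listed promoter and was not searched. The genes shown were picked with their direction known, so no contrast between directions is drawn. Of the 30 members with a listed promoter, 9 held the C/EBP letters (30.0%, against 9.56% of 32851 promoters), 5 the IL-6 response letters (16.7%, against 9.10%) and 6 the STAT letters (20.0%, against 7.02%). The HNF4 letters CAAAGTCCA stood in none of the 30 and in 0.384% of all promoters. A match is a description of the sequence, not a binding site.

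Estimated depth was 8970000 to 13240000 reads per library. RPKM, reads scaled by the length of a transcript and the size of its library, are the authors' deposited values. The length behind them matches the genomic span of a transcript with its introns. RPKM can therefore be compared between libraries for 1 gene but not between genes. Tests were made with limma on log2(RPKM + 0.5) over all 6325 genes that passed the filter, and a gene was called at a Benjamini-Hochberg adjusted p under 0.05. Log2 values below are on this scale, on which the change of a low gene comes out too small. Within a group, log2 values of any pair of libraries correlated across genes at 0.943 to 0.975, and genes are not independent replicates. In HFD against chow 484 genes were called higher and 282 lower, or 420 and 389 with libraries scaled to a common median and 426 and 384 after quantile normalization. The numbers in HFD+ASBTi against chow were 300 higher and 146 lower, against 185 and 211 with median scaling and 190 and 203 after quantile normalization.

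By spliced length and over all libraries, the fibrinogen chains stood at the top of the 38 genes. Mean levels over all libraries, as reads scaled to library size (RPM) per kilobase of spliced length, were 768 RPM per kb for Fga, 615 RPM per kb for Fgg and 536 RPM per kb for Fgb. Vtn followed with 486 RPM per kb, and in HFD livers alone it stood above Fgb, at 447 against 399.9 RPM per kb. Next came Kng1 with 326 RPM per kb and Hrg with 284 RPM per kb. At the low end stood Klkb1 with 10.5 RPM per kb, Masp1 with 7.59 RPM per kb and Tfpi with 1.56 RPM per kb. Tfpi, the inhibitor of the tissue factor pathway, was covered by an estimated 15 to 37 reads per library, against 14060 to 31194 reads for Fgb.

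**Figure D1:**
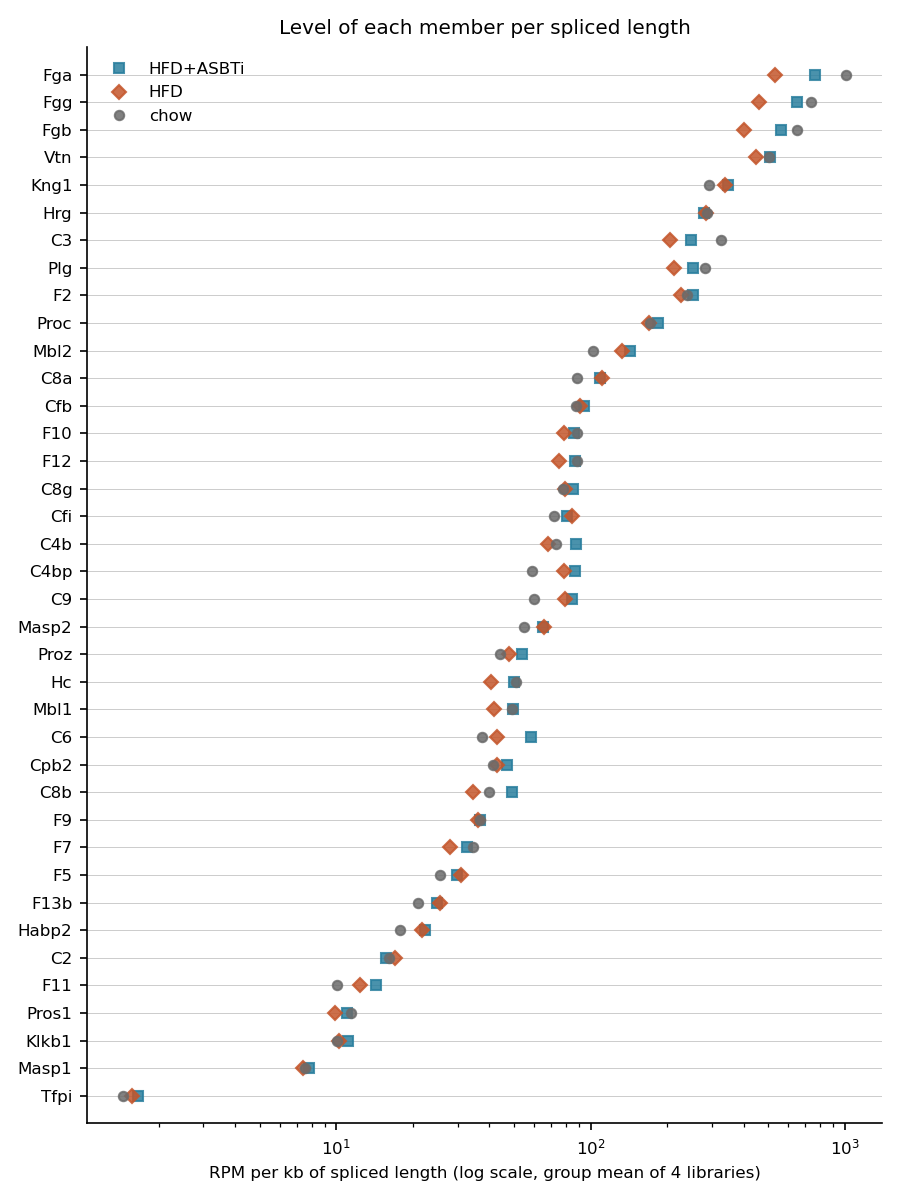
Mean level of each member in HFD+ASBTi (squares), HFD (diamonds) and chow livers (circles), in RPM per kb of spliced length on a log scale, with 4 libraries per group and genes sorted by their overall mean. The fibrinogen chains stand at the top by overall mean, with HFD at 529.6 RPM per kb and chow at 1009.8 RPM per kb for Fga, and Tfpi stands at the bottom.

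In HFD against chow, 8 of the 36 tested members were called (22.2%), against 12.1% of all genes tested. Fga, Fgb, Fgg, Plg and C3 were lower in HFD livers (5 of 36, against 4.46% of all genes), and F13b, Mbl2 and C4bp were higher (3 of 36, against 7.65%). The median log2 fold change of the 36 was 0.01, against 0.02 for all genes. HFD and chow libraries did not overlap for 9 members, 5 lower (all genes 8.89%) and 4 higher (all genes 12.4%). After quantile normalization the calls were 1 higher and 6 lower, with F12 among the lower, and with no filter on low values 4 of the 8 were called (Fga, Plg, F13b and C4bp). In HFD+ASBTi against HFD no member was called by limma in either direction (all genes 0.0316% higher, 0.0632% lower and 0.0949% in all), with 6 members at an unadjusted p under 0.05. Libraries of these 2 groups did not overlap for 2 members, F12 and F2, both higher (all genes 2.32% higher and 1.64% lower). A log2 fold change above 0 was found for 29 of the 36, as had 3410 of the 6325 genes tested. Their median was 0.12, against 0.01 for all genes. The part of single libraries in these values was not tested. HFD 3 was the lowest of the 12 for 17 of the 36 members, against 5.49% of all genes. HFD+ASBTi 4 was the highest for 11 of the 36, for which the share over all genes was not taken. In HFD+ASBTi against chow, Mbl2 and C4bp were called, both higher (2 of 36, against 4.74% of all genes higher and 7.05% in either direction). The median there was 0.11, against 0.03 for all genes. Libraries did not overlap for 10 members, 8 higher (all genes 10.2%) and 2 lower, Plg and C3 (all genes 5.53%). These comparisons share libraries, so their values are given side by side and are not independent of each other.

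**Figure D2:**
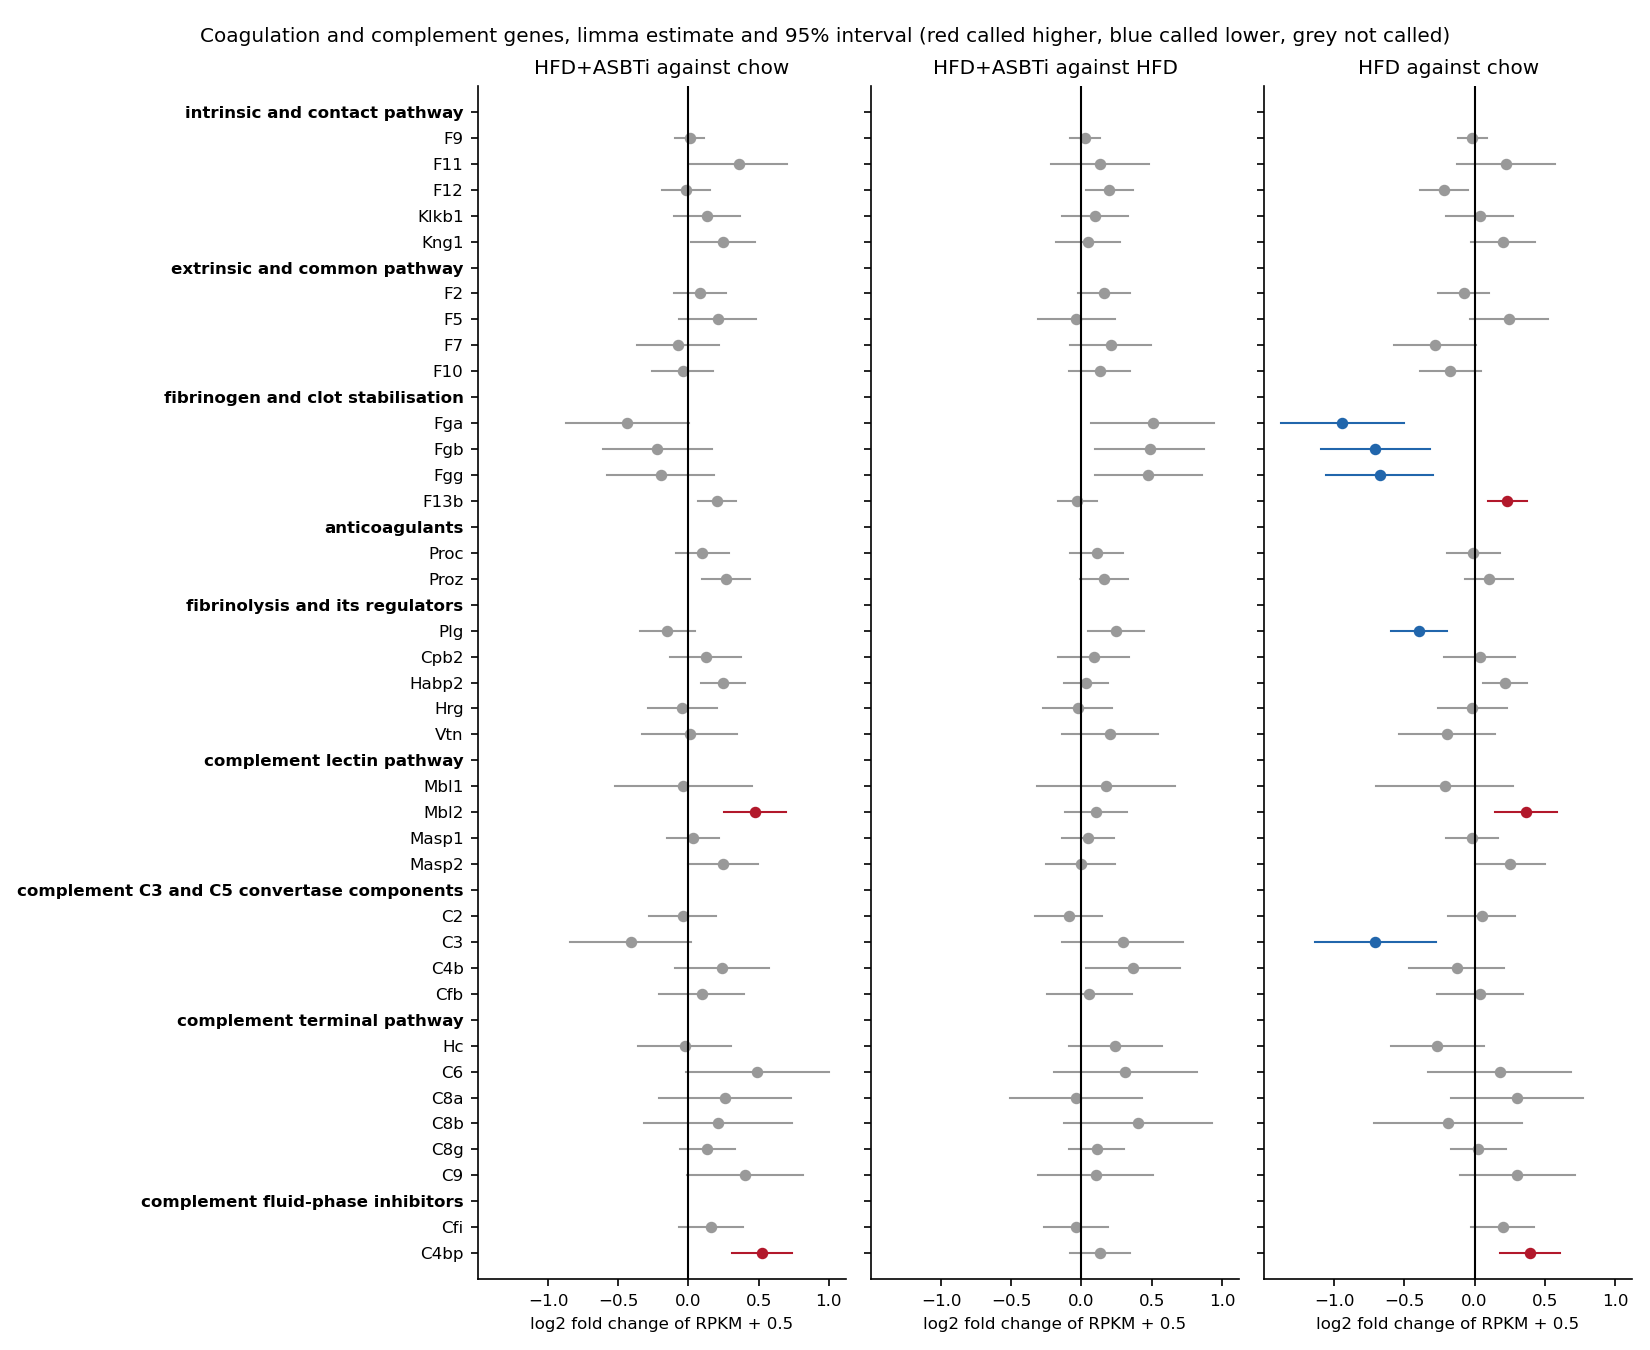
Log2 fold change of RPKM + 0.5 (x axis) with its 95% interval from limma for the 36 tested members, by role, in HFD+ASBTi against chow, HFD+ASBTi against HFD and HFD against chow. Red and blue mark members called higher and lower; the fibrinogen chains, Plg and C3 are blue in HFD against chow, and no member is coloured in HFD+ASBTi against HFD.

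All fibrinogen chains were lower in HFD than in chow livers. Fibrinogen is built from the α chain (Fga), the β chain (Fgb) and the γ chain (Fgg), whose genes lie side by side on chromosome 3. Fga had 314, 256, 175 and 323 RPKM in HFD+ASBTi livers, 234, 158, 159 and 188 RPKM in HFD livers and 302, 342, 376 and 389 RPKM in chow livers. Every HFD library was below every chow library, and the HFD+ASBTi libraries overlapped both groups, with HFD+ASBTi 3 the lowest of its group. Fga averaged 185 ± 35.8 RPKM in HFD livers and 352 ± 38.8 RPKM in chow livers (SD, n = 4 each), a log2 fold change of -0.94 ± 0.20 (SE; limma adjusted p = 0.0126). In HFD+ASBTi livers it averaged 267 ± 68.1 RPKM, a log2 difference of 0.51 ± 0.20 from HFD livers (limma adjusted p = 0.455) and of -0.43 ± 0.20 from chow livers (limma adjusted p = 0.218). Neither of these passed the test.

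Fgb had 212, 189, 189 and 288 RPKM in HFD+ASBTi livers, 198, 140, 123 and 165 RPKM in HFD livers and 214, 248, 283 and 270 RPKM in chow livers. All HFD libraries again lay below all chow libraries, with HFD+ASBTi 4 the highest of all 12. The log2 fold change of Fgb in HFD against chow was -0.71 ± 0.18 (limma adjusted p = 0.0257), and in HFD+ASBTi against HFD it was 0.49 ± 0.18 (limma adjusted p = 0.434). Fgg had 162, 143, 106 and 192 RPKM in HFD+ASBTi livers, 127, 103, 87.8 and 109 RPKM in HFD livers and 148, 175, 185 and 171 RPKM in chow livers. The order of the groups was that of Fgb, and HFD and chow libraries did not overlap. Its log2 fold change was -0.68 ± 0.17 in HFD against chow (limma adjusted p = 0.0289) and 0.48 ± 0.17 in HFD+ASBTi against HFD (limma adjusted p = 0.434). Fgb and Fgg were at a log2 of -0.22 and -0.20 in HFD+ASBTi against chow, and neither was called.

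Ratios between the chains are given as a description. The RPKM ratio of Fga to Fgb was 1.22 ± 0.246 in HFD+ASBTi livers, 1.18 ± 0.0767 in HFD livers and 1.39 ± 0.0481 in chow livers. HFD libraries, at 1.13 to 1.29, lay below chow libraries, at 1.33 to 1.44, and HFD+ASBTi libraries, at 0.925 to 1.48, spanned both. Fga to Fgg stood at 1.76 ± 0.132 in HFD+ASBTi livers, 1.73 ± 0.145 in HFD livers and 2.08 ± 0.137 in chow livers. Fgb to Fgg was 1.48 ± 0.217 in HFD+ASBTi livers, 1.46 ± 0.0973 in HFD livers and 1.49 ± 0.0723 in chow livers. The ratios were chosen after the values were seen, so no test is given.

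F13b, the carrier subunit of the clot-stabilising factor XIII, differed from chow in the direction opposite to the chains. It had 2.87, 2.88, 2.49 and 2.52 RPKM in HFD+ASBTi livers, 2.93, 2.71, 2.85 and 2.52 RPKM in HFD livers and 2.22, 2.27, 2.25 and 2.31 RPKM in chow livers. All libraries on the fatty diets lay above all chow libraries. F13b differed by a log2 of 0.23 ± 0.06 in HFD against chow (limma adjusted p = 0.0344) and 0.20 ± 0.06 in HFD+ASBTi against chow (limma adjusted p = 0.0767). The call in HFD against chow ended with median scaling and with quantile normalization.

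**Figure D3:**
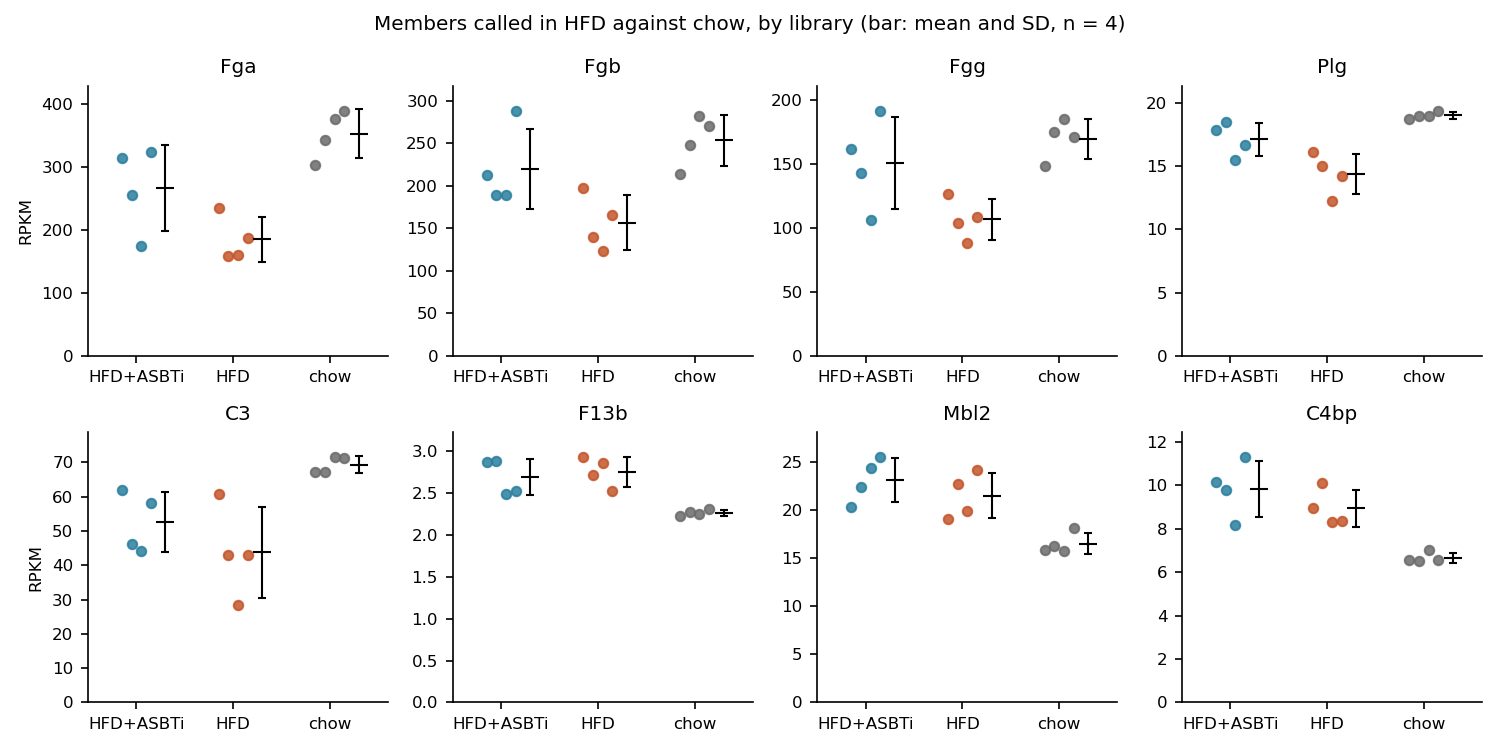
RPKM (y axes start at 0) of the 8 members called in HFD against chow, with 1 point per library in HFD+ASBTi, HFD and chow livers and the mean and SD of 4 libraries as bars. Fga, Fgb, Fgg, Plg and C3 are lower in HFD than in chow with no overlap, and F13b, Mbl2 and C4bp are higher with no overlap.

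None of the 5 intrinsic and contact pathway members was called in any comparison. Kng1, the kininogen that carries bradykinin, had 30.3, 26.1, 29.2 and 30.9 RPKM in HFD+ASBTi livers, 30.2, 25.4, 24.5 and 33.2 RPKM in HFD livers and 25.2, 23.4, 24.1 and 24.9 RPKM in chow livers. The HFD+ASBTi libraries all exceeded the chow libraries, and HFD 3 fell within the chow range. Its log2 fold change was 0.25 ± 0.10 in HFD+ASBTi against chow (limma adjusted p = 0.178). Reads of Kng1 and its close copy Kng2 may have been split by the counting, and Kng2 was called higher in HFD than in chow (log2 0.28 ± 0.07, limma adjusted p = 0.0323). F12, the factor that starts contact activation, was at 18.5 to 20.3 RPKM in HFD+ASBTi livers, 15.5 to 18.1 RPKM in HFD livers and 18.0 to 20.3 RPKM in chow livers. Its HFD+ASBTi libraries did not overlap the HFD libraries, and its limma adjusted p was 0.453. F9, the factor missing in haemophilia B, was nearly level, at 3.05 to 3.33 RPKM over all libraries. F11 (log2 0.22) and Klkb1 (log2 0.04), which encode the zymogens of factor XIa and plasma kallikrein, did not pass the test in HFD against chow.

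None of the 4 extrinsic and common pathway members was called either. F2, prothrombin, had 46.3, 45.0, 44.4 and 45.6 RPKM in HFD+ASBTi livers, 43.5, 39.4, 35.8 and 43.7 RPKM in HFD livers and 43.8, 42.3, 39.8 and 45.3 RPKM in chow livers. All HFD+ASBTi libraries exceeded all HFD libraries, with HFD 3 the lowest of the 12. F2 differed by a log2 of 0.16 ± 0.08 in HFD+ASBTi against HFD (limma adjusted p = 0.596) and -0.08 ± 0.08 in HFD against chow (limma adjusted p = 0.578). The 95% interval of F2 in HFD against chow ran from -0.26 to 0.11. F7, which tissue factor binds, had a log2 fold change of -0.28 ± 0.13 in HFD against chow (limma adjusted p = 0.186), F10 one of -0.17 ± 0.10, and F5, the cofactor of F10, one of 0.24 ± 0.13.

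Of the 4 anticoagulant members, 2 passed the filter and neither was called. Proc, protein C, had 18.1, 20.7, 20.4 and 17.5 RPKM in HFD+ASBTi livers, 19.0, 17.2, 15.8 and 19.2 RPKM in HFD livers and 17.4, 18.1, 17.8 and 18.1 RPKM in chow livers. Its groups overlapped in all comparisons, with log2 fold changes between -0.01 and 0.11. Proz, the cofactor with which a serpin blocks factor Xa, averaged 11.9 ± 0.544 RPKM in HFD+ASBTi livers, 10.6 ± 1.11 RPKM in HFD livers and 9.83 ± 0.132 RPKM in chow livers. The HFD+ASBTi libraries lay above all chow libraries, with a log2 fold change of 0.27 ± 0.08 (limma adjusted p = 0.0655). Pros1, the cofactor of activated protein C, was at 0.411 to 0.653 RPKM in HFD+ASBTi livers, 0.385 to 0.517 RPKM in HFD livers and 0.407 to 0.615 RPKM in chow livers, and did not reach the filter. Tfpi was at 0.0386 to 0.0795 RPKM over all libraries. With no filter, limma called neither in any comparison (adjusted p of 0.589 or more for Pros1 and 0.762 or more for Tfpi).

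Plg, the precursor of the fibrin-dissolving protease plasmin, was lower in HFD than in chow livers. It had 17.8, 18.5, 15.5 and 16.7 RPKM in HFD+ASBTi livers, 16.1, 15.0, 12.3 and 14.2 RPKM in HFD livers and 18.7, 19.0, 18.9 and 19.4 RPKM in chow livers. Every library on a fatty diet was below every chow library, and HFD 3 was the lowest of all. Its log2 fold change was -0.40 ± 0.09 in HFD against chow (limma adjusted p = 0.0171), and on the RPM scale, where 13316 genes were tested, it was -0.41 and not called (limma adjusted p = 0.0504). In HFD+ASBTi livers Plg was 0.25 ± 0.09 above HFD livers on the log2 scale (limma adjusted p = 0.434) and -0.15 ± 0.09 from chow livers (limma adjusted p = 0.354).

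The other 4 fibrinolysis members were not called. Habp2, a protease that activates pro-urokinase, had 1.59 to 2.10 RPKM in HFD livers and 1.48 to 1.58 RPKM in chow livers. These ranges did not overlap, and the log2 fold change was 0.22 ± 0.07 (limma adjusted p = 0.0679). Cpb2, the carboxypeptidase that slows fibrinolysis, differed by a log2 of 0.04 and Hrg, which binds plasminogen and heparin, by -0.02. Vtn, the protein that stabilises plasminogen activator inhibitor 1, differed by -0.20 ± 0.16 (limma adjusted p = 0.433). The interval for Vtn ran from -0.54 to 0.14.

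Among the complement members, Mbl2 and C4bp were higher than chow with either fatty diet. Mbl2, a lectin that starts the lectin pathway on microbial sugars, had 20.3, 22.4, 24.4 and 25.6 RPKM in HFD+ASBTi livers, 19.2, 22.8, 20.0 and 24.2 RPKM in HFD livers and 15.8, 16.3, 15.8 and 18.1 RPKM in chow livers. All libraries of both fatty diets lay above all chow libraries. The log2 fold change was 0.37 ± 0.10 in HFD against chow (limma adjusted p = 0.0378), 0.47 ± 0.10 in HFD+ASBTi against chow (limma adjusted p = 0.0210) and 0.11 ± 0.10 in HFD+ASBTi against HFD (limma adjusted p = 0.775). Mbl1, which encodes the other mannose-binding lectin, was not called. It was at 5.42 to 13.04 RPKM in HFD+ASBTi livers, 7.19 to 8.92 RPKM in HFD livers and 7.43 to 12.2 RPKM in chow livers, with a log2 fold change of -0.21 ± 0.22 in HFD against chow (limma adjusted p = 0.569). The proteases that these lectins activate are encoded by Masp1, at 0.440 to 0.671 RPKM over all libraries with no call, and Masp2.

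Masp2 depended on the transcript that stands for it. What protein each of its transcripts encodes was not examined. The main counts and levels use the transcript with the highest mean, of 738 spliced bases, which is not taken to stand for the protease. The transcript with the highest mean is a short one, at 24.6, 24.4, 26.9 and 27.3 RPKM in HFD+ASBTi livers, 29.1, 28.4, 25.2 and 21.5 RPKM in HFD livers and 24.2, 22.7, 18.6 and 21.6 RPKM in chow livers. HFD overlapped chow there, with a log2 fold change of 0.25 ± 0.11 (limma adjusted p = 0.169). The longer transcript averaged 16.7 ± 1.65 RPKM in HFD+ASBTi livers, 16.7 ± 1.68 RPKM in HFD livers and 11.3 ± 0.804 RPKM in chow livers. On the RPM scale, without division by length, these were 216, 216 and 147 RPM, and those of the short transcript were 48.1, 48.6 and 40.6 RPM. A longer genomic span gathers more reads, so these values do not rank the transcripts by abundance. An alternative chosen after the data were seen used the transcript with the lowest mean for each member. With it, Masp2 was called higher in HFD against chow (log2 0.54, limma adjusted p = 0.00711) and in HFD+ASBTi against chow (log2 0.54, limma adjusted p = 0.0131). The end of the longer transcript, but not the short one, shares 3118 bases with Tardbp, an RNA-binding protein gene on the opposite strand. Whether the counting used strand is not stated, and reads of the shared stretch cannot be told apart. Tardbp averaged 10.5 ± 0.447 RPKM in HFD+ASBTi livers, 10.3 ± 0.497 RPKM in HFD livers and 7.76 ± 0.339 RPKM in chow livers, and was called higher in HFD against chow (log2 0.38 ± 0.06, limma adjusted p = 0.00482).

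**Figure D4:**
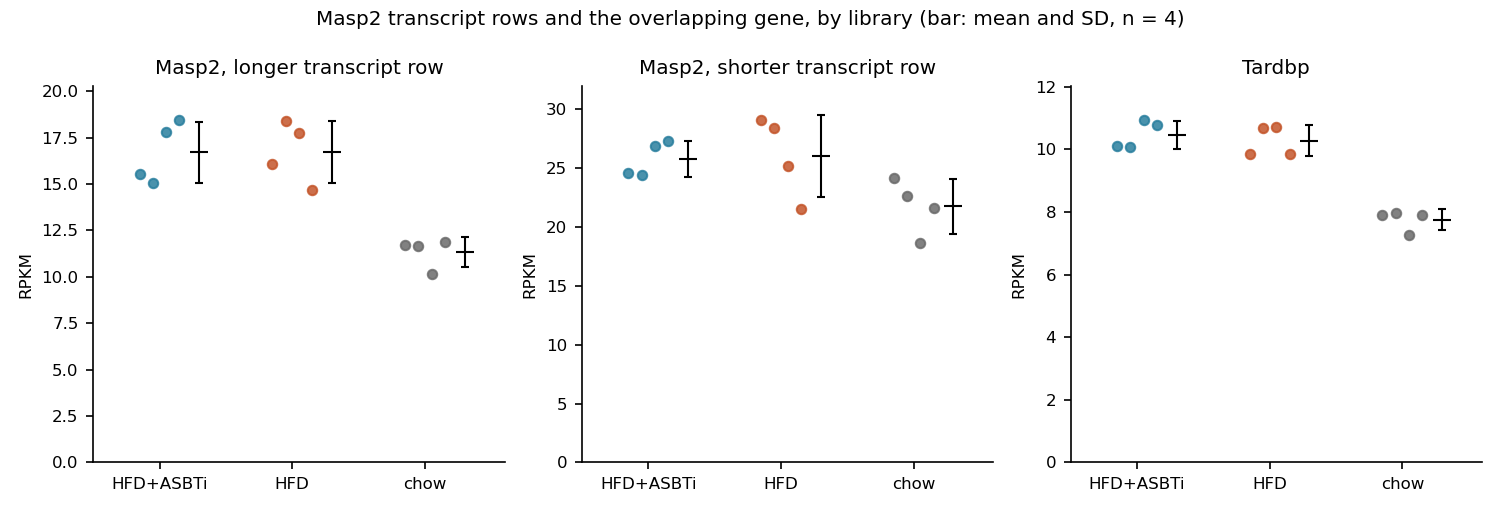
RPKM (y axes start at 0) of the longer Masp2 transcript, the shorter Masp2 transcript and Tardbp, with 1 point per library and the mean and SD of 4 libraries as bars. For the longer transcript and for Tardbp all HFD+ASBTi and HFD libraries lie above all chow libraries, and for the shorter transcript HFD and chow overlap.

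C3, the protein on which all complement routes converge, was the 1 convertase member that was called. It had 62.0, 46.1, 44.2 and 58.1 RPKM in HFD+ASBTi livers, 60.9, 43.0, 28.4 and 43.0 RPKM in HFD livers and 67.1, 67.3, 71.6 and 71.4 RPKM in chow livers. Chow libraries lay close together and above every library on a fatty diet, while HFD libraries spread widely, with HFD 3 far below HFD 1. The log2 fold change was -0.71 ± 0.20 in HFD against chow (limma adjusted p = 0.0393) and -0.41 ± 0.20 in HFD+ASBTi against chow (limma adjusted p = 0.237). With HFD and chow fitted alone the call of C3 ended (limma adjusted p = 0.0554).

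C2, C4b and Cfb, which supply the other subunits of the C3 and C5 convertases, were not called. C4b averaged 30.5 ± 5.16 RPKM in HFD+ASBTi livers, 23.6 ± 4.98 RPKM in HFD livers and 25.4 ± 0.626 RPKM in chow livers. Its log2 fold change in HFD+ASBTi against HFD was 0.37 ± 0.15 (limma adjusted p = 0.485), with overlapping groups. C4b has a close copy, C4a, and its value is uncertain to that extent. Cfb, factor B of the alternative pathway, differed by a log2 of 0.04 in HFD against chow, with an interval from -0.27 to 0.34, and C2 by 0.05, from -0.19 to 0.29.

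None of the 6 terminal pathway members was called. C8g, the γ subunit of C8, had 49.3, 55.1, 48.9 and 46.9 RPKM in HFD+ASBTi livers, 51.2, 43.9, 42.4 and 48.4 RPKM in HFD livers and 46.4, 45.3, 42.0 and 48.3 RPKM in chow livers. The 3 groups overlapped throughout, and the log2 fold change in HFD against chow was 0.03 ± 0.09. C8g shares 1028 bases with Fbxw5, which was not called. Hc, which encodes C5, had a log2 fold change of -0.27 ± 0.15 in HFD against chow (limma adjusted p = 0.271). C6 averaged 2.18 ± 0.803 RPKM in HFD+ASBTi livers, 1.61 ± 0.312 RPKM in HFD livers and 1.40 ± 0.546 RPKM in chow livers, a wide spread within each group. C9, the pore-forming component, differed by a log2 of 0.30 ± 0.19 in HFD against chow (limma adjusted p = 0.309).

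C8a and C8b, which encode the other chains of C8, stood at a ratio of 2.36 ± 0.600 in HFD+ASBTi livers, 3.42 ± 0.792 in HFD livers and 2.26 ± 0.108 in chow livers, each chain on RPKM. Every HFD library, at 2.56 to 4.30, was above every chow library, at 2.15 to 2.40. Neither gene was called alone, with a log2 fold change in HFD against chow of 0.30 ± 0.21 for C8a and -0.19 ± 0.24 for C8b. This ratio too was chosen after the values were seen and is given without a test.

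C4bp, an inhibitor that helps factor I to cut C4b, rose most over chow of the called members with either fatty diet. It had 10.1, 9.76, 8.17 and 11.3 RPKM in HFD+ASBTi livers, 8.93, 10.1, 8.31 and 8.36 RPKM in HFD livers and 6.55, 6.50, 6.996 and 6.56 RPKM in chow livers. All libraries on the fatty diets exceeded all chow libraries, which lay close together. The log2 fold change was 0.39 ± 0.10 in HFD against chow (limma adjusted p = 0.0245), 0.52 ± 0.10 in HFD+ASBTi against chow (limma adjusted p = 0.0138) and 0.13 ± 0.10 in HFD+ASBTi against HFD (limma adjusted p = 0.711). The call in HFD against chow ended with quantile normalization, and reads of C4bp and its pseudogene copy may have been split by the counting. Cfi, factor I itself, averaged 4.37 ± 0.147 RPKM in HFD+ASBTi livers, 4.56 ± 0.807 RPKM in HFD livers and 3.86 ± 0.218 RPKM in chow livers and was not called (log2 0.20 ± 0.10 in HFD against chow, limma adjusted p = 0.229).

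HFD 3 was the lowest of the 12 libraries for 17 of the 36 members (47.2%), against 5.49% of all genes tested. Its median member lay 0.15 below the chow mean on the log2 scale. Without HFD 3, 475 of all genes were called in HFD against chow (7.51%, against 12.1% with it), and 5 members, namely Fga (log2 -0.88), Plg (log2 -0.33), C4bp, Cfi and Habp2, while Fgb (log2 -0.60, limma adjusted p = 0.0703), Fgg (log2 -0.59, limma adjusted p = 0.0805), C3 (log2 -0.52, limma adjusted p = 0.0757), F13b and Mbl2 were not. Other libraries also decided calls. Fga and Plg were called in all 12 fits that left out 1 library each, with a limma adjusted p of up to 0.0400 for Fga and 0.0472 for Plg. Fgb and Fgg lost the call without HFD 2, HFD 3, chow 2, chow C7 or chow 4. C3 lost it without HFD 2, 3 or 4 or any 1 chow library, F13b without HFD 1, 2 or 3 or any 1 chow library, Mbl2 without HFD 2, 3 or 4 or chow 1, 2 or C7, and C4bp without HFD 2 or chow 1, 2 or 4. In HFD+ASBTi against chow, C4bp was called in all 12 such fits, and Mbl2 lost the call without chow 1, 2 or C7.

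Of 18 other acute phase plasma proteins, all tested, Lbp, Crp and Orm2 were called lower in HFD against chow (4.46% of all genes were) and none higher. HFD libraries lay below all chow libraries for 8 (8.89% of all genes), 17 had a log2 fold change below 0, and the median was -0.57, against 0.02 for all genes. In HFD+ASBTi against HFD none was called by limma, with 3 at an unadjusted p under 0.05, and the median was 0.51, against 0.01 for all genes. Crp, C-reactive protein, was at 85.4 to 123 RPKM in HFD+ASBTi livers, 83.0 to 98.7 RPKM in HFD livers and 115 to 137 RPKM in chow livers. Saa1, serum amyloid A, was not called in any comparison. It had 705, 130, 7.82 and 416 RPKM in HFD+ASBTi livers, 121, 15.8, 21.0 and 42.6 RPKM in HFD livers and 155, 142, 323 and 301 RPKM in chow livers. HFD+ASBTi 3 was the lowest library of all for Saa1 and the lowest of its group for Fga and Fgg. For Fgb it was level with HFD+ASBTi 2, at 189 RPKM each. Orm2, orosomucoid, averaged 8.73 ± 5.49 RPKM in HFD+ASBTi livers, 4.26 ± 1.78 RPKM in HFD livers and 14.7 ± 3.92 RPKM in chow livers. Lbp, the lipopolysaccharide-binding protein, fell by 1.09 ± 0.16 on the log2 scale in HFD against chow (limma adjusted p = 0.00226). The part of these genes' common level in the fibrinogen result was not tested. With 1 library left out at a time, Fga in HFD+ASBTi against HFD had a log2 fold change of 0.40 to 0.70 and a limma adjusted p of 0.170 to 0.734, and was never called.

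**Figure D5:**
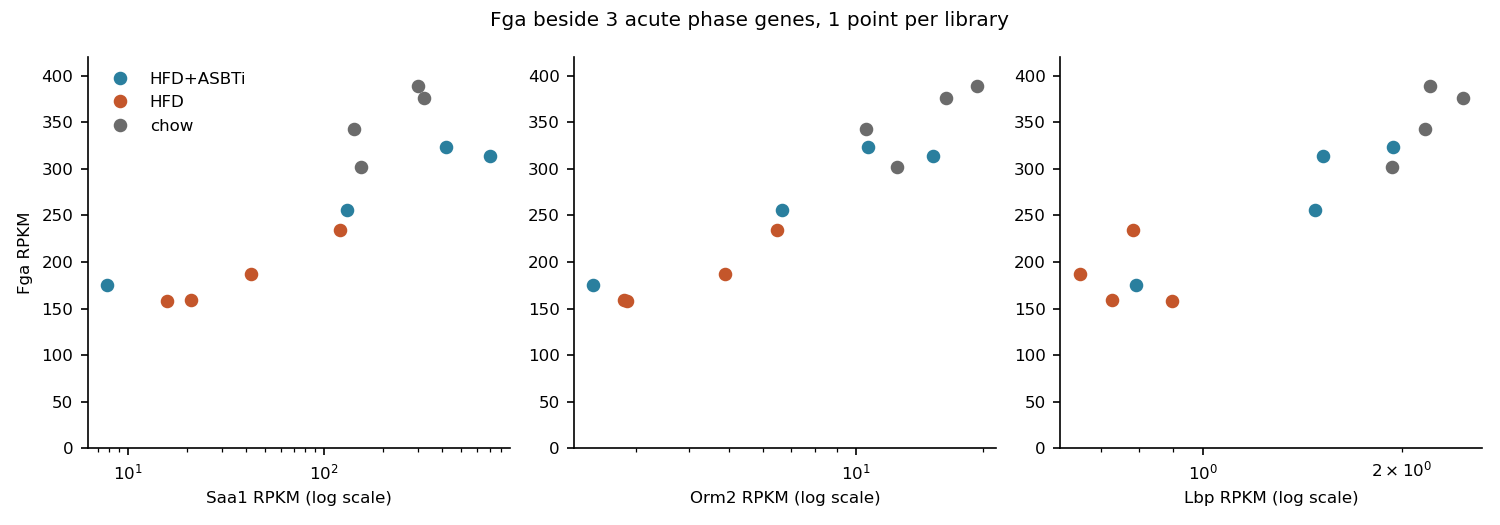
Fga RPKM (y axis from 0) against Saa1, Orm2 and Lbp RPKM (x axes on a log scale), with 1 point per library, coloured by group. HFD libraries and HFD+ASBTi 3 lie at the lower left, at 234 RPKM of Fga or less, and chow libraries at the upper right, at 302 RPKM or more. HFD+ASBTi 1 and 4, at 314 and 323 RPKM of Fga, lie to the right of all chow libraries for Saa1, at 705 and 416 RPKM. HFD+ASBTi 2 lies at 256 RPKM of Fga and 130 RPKM of Saa1.

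Of 10 tested liver transcription and IL-6 signalling factors, 1 was called higher (7.65% of all genes were) and 2 lower (4.46% of all genes) in HFD against chow. Hnf4a, which drives many hepatocyte genes, averaged 13.3 ± 0.921 RPKM in HFD+ASBTi livers, 11.3 ± 1.60 RPKM in HFD livers and 19.2 ± 1.08 RPKM in chow livers. It was lower than chow in HFD livers (log2 -0.74 ± 0.10, limma adjusted p = 0.00126) and in HFD+ASBTi livers (log2 -0.51 ± 0.10, limma adjusted p = 0.0155). Cebpa, a C/EBP factor, was higher than chow in HFD livers (log2 0.54 ± 0.11, limma adjusted p = 0.0111) and in HFD+ASBTi livers (log2 0.57 ± 0.11, limma adjusted p = 0.0158). Il6ra, a chain of the IL-6 receptor, was lower in HFD livers (log2 -0.41 ± 0.12, limma adjusted p = 0.0498). Stat3 averaged 0.801 ± 0.0388 RPKM in HFD livers and 1.20 ± 0.160 RPKM in chow livers and was not called (limma adjusted p = 0.0657). The bile acid receptor gene Nr1h4 was not called in any comparison.

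Among other genes of the same pathways, outside the 38, 2 of 17 tested complement genes (11.8%) and 1 of 8 tested clotting and fibrinolysis genes (12.5%) were called in HFD against chow, against 12.1% of all genes. C1s, a protease of the classical pathway, was higher than chow in HFD livers (log2 0.34 ± 0.07, limma adjusted p = 0.0127) and in HFD+ASBTi livers (log2 0.43 ± 0.07, limma adjusted p = 0.00886). Cfd, factor D, had 1.001, 6.65, 6.47 and 1.92 RPKM in HFD livers and 0, 0, 0.731 and 0.0511 RPKM in chow livers. It reached the filter through the fatty diets, where it is high, and in 1 chow library. Its call in HFD against chow is therefore not used as a result, although Cfd is 1 of the 2 complement genes in the count above. Of the clotting genes Kng2 was called, as given above. Thbd, thrombomodulin, was at most 0.477 RPKM in HFD+ASBTi livers and 0.544 to 0.605 RPKM in chow livers. It passed the filter only through the chow libraries, so its call in HFD+ASBTi against chow is not counted here. Of 5 tested serpins of clotting and complement, Serpinf2, which inhibits plasmin, was lower in HFD livers at 36.1 ± 7.56 RPKM, against 55.4 ± 3.57 RPKM in chow livers (log2 -0.63 ± 0.16, limma adjusted p = 0.0303). None of 6 genes for the vitamin K cycle and factor secretion was called in any comparison, with 1, 0 and 1 at an unadjusted p under 0.05 in HFD against chow, HFD+ASBTi against HFD and HFD+ASBTi against chow.

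The labelled tissue was matched by its markers. The 9 hepatocyte markers in the table, albumin among them, summed to 3452 to 3850 RPKM in HFD+ASBTi livers, 3436 to 5183 RPKM in HFD livers and 3422 to 3865 RPKM in chow livers, and 1, Cps1, was called lower in HFD livers. The hepatocyte sums are mostly Apoa1, at 1395 to 3056 RPKM over all libraries, and Alb, at 582 to 1311 RPKM. The 10 macrophage markers summed to 15.9 to 25.0 RPKM in HFD+ASBTi livers, 15.7 to 19.0 RPKM in HFD livers and 10.3 to 23.0 RPKM in chow livers, and 1 of 5 tested, Cd68, was called higher in HFD livers. The 5 red blood cell markers summed to 84.4 to 167 RPKM in HFD+ASBTi livers, 95.1 to 172 RPKM in HFD livers and 17.1 to 79.1 RPKM in chow livers, and Hba-a1 and Hbb-b1 of 3 tested were called higher in HFD livers. The 5 adipose markers summed to 0.592 to 1.59 RPKM in HFD+ASBTi livers, 0.771 to 5.39 RPKM in HFD livers and 0.389 to 0.637 RPKM in chow livers. Cidec, the 1 tested, was called higher in HFD livers. It was at 0.389 to 0.532 RPKM in chow livers and reached the filter through the fatty diets, where it is high. Its call is therefore not used as a result. The other 4 adipose markers averaged under 0.1 RPKM over all libraries, so the adipose sums are mostly Cidec. The 6 platelet markers summed to at most 1.50 RPKM in any library, and none passed the filter. Of the endothelial, stellate cell and cholangiocyte markers 1 each was tested and none was called, and no marker of lymphocytes or neutrophils passed the filter. Cd68, Hba-a1 and Hbb-b1 were also called higher, and Tat, a hepatocyte marker, lower, in HFD+ASBTi against chow. No listed marker of these sets was at 0 in all libraries. The part of other cells and of blood in the results above was not tested, and fewer cells of a type and less RNA per cell cannot be told apart in whole liver.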

How the data were processed

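Male mouse liver polyA RNA was measured in 12 libraries, 4 each for HFD+ASBTi, HFD and chow. The authors' deposited table gives RPKM for 33763 RefSeq transcripts. Bowtie 0.12.7 and the mm9 build stand in the submitters' processing notes; no source used here names the counter or the annotation. In 78.4% to 80.7% of cases the table's low values came to a whole number of reads, give or take 0.05, with the genomic span in GRCm38 and in 11.9% to 13.3% with the spliced length, and those steps gave the estimated depth. Read numbers are estimates and carry counting error only. Of the transcripts, 2605 with no symbol and 48 whose symbol had become a date were named by accession where possible, and 16 stayed unnamed.

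Members were matched by deposited symbol, 30 with 1 transcript and 8 with several, and the highest mean was kept. A further C8a transcript with no symbol was left out. A gene was tested where 4 or more of the 12 libraries reached 0.5 RPKM. limma 3.58.1 (R 4.3.3; lmFit and eBayes with a mean-variance trend) was fitted to log2(RPKM + 0.5) with all groups in 1 model, two-sided, adjusted by Benjamini-Hochberg over the 6325 genes tested, and was tested on simulated data. Members, gene lists and tests were chosen with earlier results of these data known. Values in every library are given for each called member and for the member with the highest mean log2(RPKM + 0.5) of a role without one. Up to 4 called genes of each other list, and a few liver factors, are named. Saa1, which was not called, is shown outside this rule. Some results on liver factors are not reported here. Promoters, from the RefSeq table on GRCm38.p6, were matched by symbol for 30 of 38 members and searched over 250 bases on both strands. Alternatives were 2 other pseudocounts, 2 other filters, median and quantile scaling, an RPM scale, other transcript choices, the 2 groups compared alone, no trend, a replicate block and leaving out each library. Python 3.11.15, pandas 2.3.3, numpy 2.4.6 and matplotlib 3.10.9 were used.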

Additional observations from a re-analysis of the deposited data

Results flagged for a closer look

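In 114 groups of 4 libraries, 1 for each member and group, 4 held a library whose gap to the nearest other was above Dixon's 95% critical value for 4 values, and chance gives about 1 in 20. Pros1 was at 0.653 RPKM in HFD+ASBTi 4, against 0.411 to 0.442 RPKM in the other HFD+ASBTi libraries. C2 was at 2.69 RPKM in HFD+ASBTi 4, against 1.93 to 1.96 RPKM in the others. C4b was at 22.8 RPKM in HFD+ASBTi 3, against 32.4 to 34.1 RPKM in the others. C4bp was at 6.996 RPKM in chow C7, against 6.50 to 6.56 RPKM in the other chow libraries.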

How the results depend on the processing

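Calls among the 36 tested members moved with the processing, and the cause was not tested. In HFD against chow 8 members were called, and 4 with no filter on low values, where C3, Fgb, Fgg and Mbl2 were not. Other settings gave 7 to 9. Leaving out 1 library each gave 2 to 8, while calls over all genes ran from 458 to 864 (7.24% to 13.7%). In HFD+ASBTi against chow 2 members were called, 2 or 3 under other settings and 1 to 3 when a library was left out (all genes 2.25% to 8.24%). Members gained were F12 (quantile normalization), Masp2 (other transcript choices), Proz (no variance trend, or without HFD 1 or HFD 4), Habp2 (2 groups alone, or without HFD 3) and Cfi (without HFD 3). In HFD+ASBTi against HFD none was called under any setting or leave-out. The transcript with the lowest mean was an alternative chosen after seeing the data.

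None of the 10 called values changed sign under the 12 leave-outs and the other settings. Of 108 member values, 3 for each tested member, 28 did, at a log2 of at most 0.19 in size. Those in the report were all in HFD against chow. Hrg came to 0.019 after quantile normalization and C8g to -1.7e-05 with median scaling. With a library left out, log2 values ran from -0.048 to 0.14 for Klkb1, -0.047 to 0.046 for Proc, -0.023 to 0.079 for Cpb2, -0.074 to 0.070 for Hrg, -0.014 to 0.12 for C2, -0.059 to 0.13 for Cfb and -0.020 to 0.070 for C8g.

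HFD and HFD+ASBTi libraries carry the same replicate numbers. Deviations of same-numbered libraries from their group means correlated at 0.041 to 0.069, all under 0.1, and HFD+ASBTi 1 correlated best with HFD 2 (0.12), so the numbers were not taken as pairs. With the replicate block 0 members were called, and 3 genes in all, against 6 without the block. Depth limits Tfpi most, at 15 to 37 estimated reads.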
